A study of Mus musculus with 4 samples.

Results

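Genes of the early lymphoid and pre-B receptor program were examined in mouse megakaryocyte and erythrocyte progenitors with and without Ezh2. The 10 genes were Vpreb1, Vpreb2, Vpreb3, Igll1, Cd79a, Cd79b, Dntt, Pou2af1, Rag1 and Rag2, out of 31703 genes or other transcript names on the array. They were taken by gene symbol, and as a set because several of them were higher in the bone marrow array labelled Ezh2-null. The values of that bone marrow comparison are therefore given as a description. Symbols or accessions found 9 of the genes, while Igll1 was listed under a transcript name and was found through the probe description, which names Ig lambda-5.

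Each of the 4 arrays held RNA of 1 sample on a C57BL/6 background. The sources were fetal liver of E14.5 embryos and adult bone marrow, each with 1 array labelled wild type and 1 labelled Ezh2-null (Ezh2-/-). Ezh2 is the enzyme of Polycomb repressive complex 2 that methylates lysine 27 of histone H3, a mark found at silent genes. The sort that gave the progenitors, the number and sex of the animals, the way Ezh2 was deleted and the part of the gene that was removed are not given in the sources used here. With 1 array per group there was no replicate check, so no test was made, and every difference compares these arrays and not the conditions.

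The surrogate light chain is made of a Vpreb protein and lambda-5, the product of Igll1. In precursor B cells it pairs with the immunoglobulin heavy chain and, with the signalling chains Cd79a and Cd79b, forms the pre-B receptor that tests whether the heavy chain is usable. The recombinase made of Rag1 and Rag2 cuts the antigen receptor genes, terminal transferase (Dntt) adds bases at the joints, and Pou2af1 is a coactivator that octamer-binding factors recruit in B cells. These genes are textbook marks of lymphoid cells, not all of them limited to precursors, and not of the erythroid or megakaryocyte lineages.

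The signal used throughout is the Agilent processed intensity after the arrays had been scaled to each other, on a linear scale and comparable between arrays for 1 probe only. A gene was counted as detected on an array where its brightest probe was well above background there. The share of probes well above background ranged from 39.0 to 46.4% of 39418, and the lowest signal of such a probe, the floor of the array, ranged from 9.98 in the Ezh2-null bone marrow array to 19.3 in the wild-type fetal liver array. Probes printed 10 times per array had a median SD between copies of 0.19 to 0.31 on the log2 scale at signals under 50. At higher signals it was 0.05 to 0.08, and this SD is the only error these arrays give. Of the probes that stand for the genes described, only that of Rag2 was printed more than 1 time. The values of the other genes are single spots with no error of their own. The bone marrow arrays correlated at r = 0.982 over probes, and the other pairs at 0.915 to 0.937. The Ezh2 probe read 33.5 in wild-type and 194 in Ezh2-null fetal liver, and 35.4 in wild-type and 70.02 in Ezh2-null bone marrow. It was thus brighter on both arrays labelled Ezh2-null, which goes against the labels if the probe lies in the deleted part. Ezh2-null below means labelled so, and each direction by genotype rests on the labels. Among the progenitor markers, the erythroid and megakaryocyte factor Gata1 read 6624 to 10280, while Fli1 was not well above background on any array.

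A pair of probes is printed because each decides which gene a value belongs to. The Vpreb2 probe lay at chr16:17981114-17981173 (build mm9, plus strand) and is listed in the deposited files with RefSeq transcripts of both Vpreb1 and Vpreb2, so its signal can come from either. The Vpreb1 probe at chr16:16868559-16868618 (minus strand) is listed with Vpreb1 alone. The Igll1 probe lay at chr16:16861104-16861163 (minus strand). Capitals mark a stop codon at the end of the Vpreb2 probe.
Vpreb2 probe: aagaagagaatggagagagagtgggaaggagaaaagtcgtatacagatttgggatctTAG
Igll1 probe: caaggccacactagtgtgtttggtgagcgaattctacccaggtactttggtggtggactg

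The letters in front of both genes also nearly match. The 250 bases before the starts of Vpreb1 (chr16:16869256-16869505, minus strand) and Vpreb2 (chr16:17980315-17980564, plus strand) are from RefSeq's GRCm38.p6, with bases that agree over the shared stretch in capitals.
Vpreb1 promoter: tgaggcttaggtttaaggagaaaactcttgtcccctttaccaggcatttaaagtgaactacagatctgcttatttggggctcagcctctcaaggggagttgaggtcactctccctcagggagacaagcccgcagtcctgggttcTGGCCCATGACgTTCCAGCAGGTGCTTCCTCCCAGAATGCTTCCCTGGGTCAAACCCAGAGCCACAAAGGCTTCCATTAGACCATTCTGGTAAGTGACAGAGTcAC
Vpreb2 promoter: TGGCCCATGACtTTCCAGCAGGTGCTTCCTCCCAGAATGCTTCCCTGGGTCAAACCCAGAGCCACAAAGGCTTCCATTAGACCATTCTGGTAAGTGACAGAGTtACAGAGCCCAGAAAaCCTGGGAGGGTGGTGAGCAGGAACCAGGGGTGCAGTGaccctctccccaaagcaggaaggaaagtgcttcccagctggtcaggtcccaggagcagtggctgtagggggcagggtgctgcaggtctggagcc
In windows that reach 50 bases past each start, an ungapped stretch of 156 bases was shared, with 153 identical and 3 different bases (98.1% identity). It begins 106 bases before the Vpreb1 start and at the first printed base for Vpreb2, so the same letters lie at different distances from the 2 annotated starts. Its ends are the first base of the Vpreb2 window and the last base of the Vpreb1 window. Bases beyond them were not compared, so the likeness may reach further, and lower case outside the stretch does not mean a difference.

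The surrogate light chain genes were seen mostly on the Ezh2-null bone marrow array. In fetal liver Vpreb1 read 91.5 on the wild-type array and 2.80 on the Ezh2-null array. In bone marrow it read 10.6 and 2202 in that order, and only the 91.5 and the 2202 were well above background. It was therefore at least 198-fold higher in the bone marrow array labelled Ezh2-null than in wild type (log2 difference 7.63). A bound of this kind sets the bright signal against the higher of 2 values, the floor of the dim array and the signal the dim probe had there, because a probe not above background has no measured level. Here and below, "at least" holds for the main processing only. With another background correction, described below, the Vpreb1 difference was 5.31 (log2). Fewer cells of a type and less RNA per cell cannot be told apart in such bulk samples.

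Igll1 read 4.05, 2.65 and 4.83 on the wild-type fetal liver, Ezh2-null fetal liver and wild-type bone marrow arrays, none well above background, and 263 in Ezh2-null bone marrow. The bound was at least 23.6-fold by genotype in bone marrow (log2 4.56). Vpreb2 read 4.40, 2.93 and 2.50 on the same 3 arrays, again below the background limit, against 178 in Ezh2-null bone marrow, or at least 16.0-fold (log2 4.0). Since its probe is shared with Vpreb1, this value stands for either gene. Vpreb3, a Vpreb-like protein that binds newly made immunoglobulin chains inside the cell, had a probe at chr10:75412326-75412385. It read 7.15, 3.25 and 4.51 without detection and 149 in Ezh2-null bone marrow, at least 13.4-fold higher there (log2 3.75).

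The signalling chains of the receptor differed from each other. Cd79b, with a probe at chr11:106172780-106172839, was not well above background on either fetal liver array (16.5 in wild type, 3.70 in Ezh2-null). In bone marrow it read 2.56 in wild type, again not well above background, and 87.02 in Ezh2-null. This was at least 7.83-fold higher than in wild-type bone marrow (log2 2.97). Cd79a, with a probe spanning chr7:25684357-25684614, was well above background on every array. In fetal liver it read 41.4 (wild type) and 22.6 (Ezh2-null), and in bone marrow 16.2 and 43.3. The bone marrow signal was 2.68-fold higher on the Ezh2-null array (log2 1.42), and the highest values of both sources, 43.3 and 41.4, came from different genotypes. With normexp background correction, a model-based method that adds an offset, the Cd79a difference in bone marrow was 0.51 on the log2 scale, under 2-fold.

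The genes that recombine and diversify receptor genes were split. Dntt, at chr19:41133936-41133995, was well above background on all arrays, with 34.97 (wild type) and 26.0 (Ezh2-null) in fetal liver and 76.6 and 1381 in bone marrow. It was 18.01-fold higher by genotype in bone marrow (log2 4.17), with both sides measured. The recombinase genes did not share this pattern. Neither of the Rag1 probes (chr2:101478813-101478872 and chr2:101481051-101481110) was well above background on any array. The brighter of them read 4.72 (wild type) and 3.20 (Ezh2-null) in fetal liver and 2.58 and 2.32 in bone marrow. Rag2 read 32.2 and 23.1 in wild-type and Ezh2-null fetal liver and 12.3 and 12.8 in wild-type and Ezh2-null bone marrow. That probe is printed 10 times per array, its copies had log2 SDs of 0.70 to 1.05, and between 4 and 7 of the 10 were well above background. The bone marrow difference for Rag2 (log2 0.06) was far under that spread. A second Rag2 probe was not well above background on any array.

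Pou2af1, at chr9:51048121-51048180, was not well above background in wild-type (4.20) or Ezh2-null (7.08) fetal liver. In bone marrow it read 17.01 in wild type and 378 in Ezh2-null, both well above background. The measured difference was 22.2-fold (log2 4.48).

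**Figure D1:**
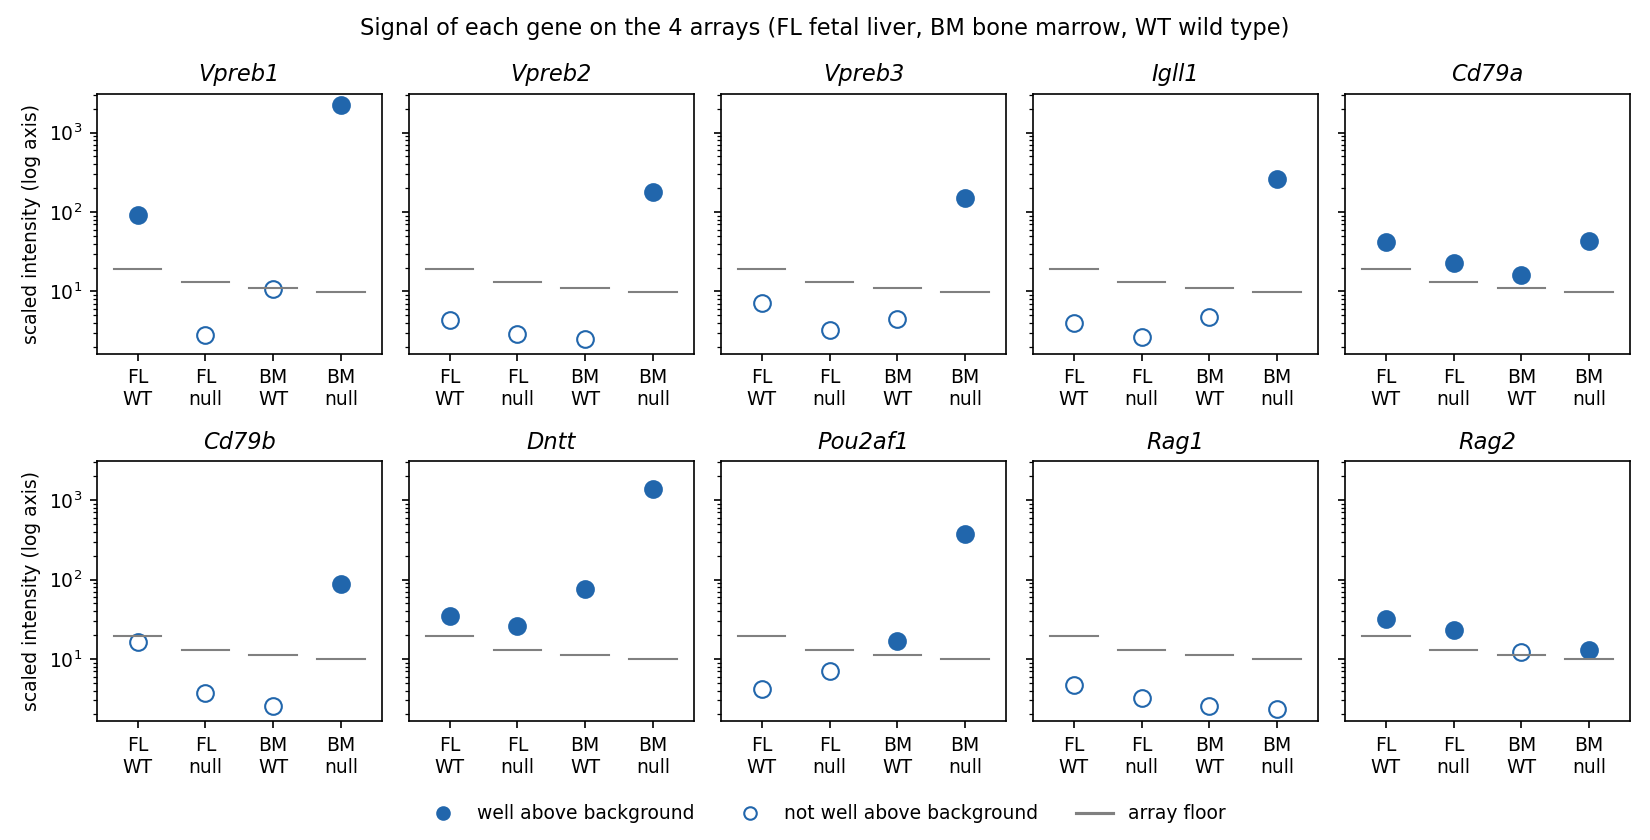
Scaled signal of the 10 genes on the 4 arrays (log axis, 1 panel per gene, 1 point per array; filled points are well above background, open points are not, and the grey line is the floor of each array). Vpreb1, Igll1, Vpreb2, Vpreb3, Cd79a, Cd79b, Dntt and Pou2af1 have their highest point on the Ezh2-null bone marrow array, while Rag1 has only open points.

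In all, 9 of the 10 genes were detected on the Ezh2-null bone marrow array, against 3 on the wild-type bone marrow array and, for fetal liver, 4 in wild type and 3 in Ezh2-null. The signals of all 10, dim ones included, summed to 4697 there, to 150 in wild-type bone marrow, and to 241 (wild type) and 97.3 (Ezh2-null) in fetal liver. Such a sum adds different probes, and Vpreb1 (2202) and Dntt (1381) make up most of the 4697. The sums given for lists below also include dim genes. In bone marrow, 8 of the 9 genes that could be compared were at least 2-fold higher in the array labelled Ezh2-null and none was lower, with 6 of the 9 values being bounds. Over all genes compared, 4.54% of 15279 were at least 2-fold higher and 7.64% at least 2-fold lower. At a threshold of 4-fold, 7 of the genes were higher, against 0.982% of all genes. Since the set was chosen on this contrast, nothing is read from these counts. The median of the 9 differences, with bounds taken at their bound, was 4.0 (log2), and that of all genes was -0.04. Cd79a was the gene nearest above the 2-fold limit (2.68-fold) and Rag2 the gene below it (1.05-fold).

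The fetal liver comparison did not enter the choice of genes, and there the picture was a different one. Only 4 genes were detected on at least 1 fetal liver array, and none was 2-fold higher in the array labelled Ezh2-null. Vpreb1 was at least 7.05-fold lower there (log2 -2.82), since it was well above background in wild type (91.5) and not in Ezh2-null (2.80). Over all genes, 15.4% of 16257 were at least 2-fold higher and 13.3% at least 2-fold lower in Ezh2-null fetal liver, and the 1 lower gene of 4 is read against that share. Cd79a (log2 -0.88), Rag2 (-0.48) and Dntt (-0.43) were each under 2-fold, beside a median of -0.14 over all genes. Cd79a reached -1.04 when the scaling percentile was taken over all probes, and Dntt turned to 0.03 when spike-in probes set the scale. The Rag2 difference was smaller than the SD between single copies of its probe (0.70 in wild type, 0.81 in Ezh2-null). That SD is larger than the error of a mean over copies, which was not estimated. Vpreb2, Vpreb3, Igll1, Cd79b, Pou2af1 and Rag1 were not detectable on either fetal liver array at these signals, so no change of theirs could be measured.

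**Figure D2:**
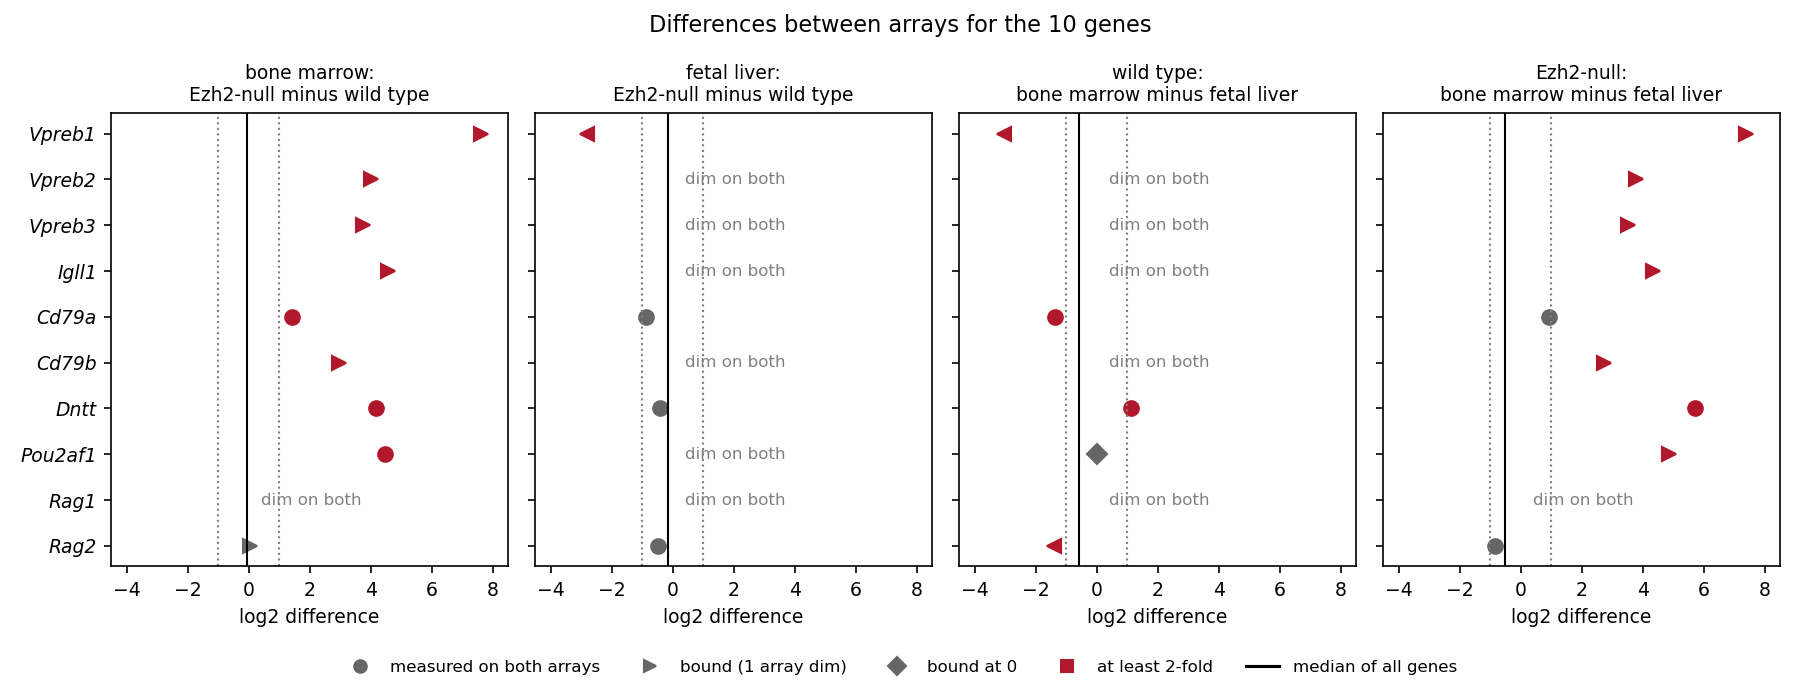
Log2 differences of the 10 genes in the 4 comparisons (circles, both sides measured; triangles, bounds; diamond, a bound of 0; red, at least 2-fold; dotted lines, 2-fold; black line, median of all genes; genes dim on both arrays have no point). The points of all compared genes but Rag2 lie to the right in both comparisons that hold the Ezh2-null bone marrow array. In the other comparisons most points lie to the left or near 0.

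Adult and fetal sources were then set against each other within each genotype. These comparisons share the bone marrow arrays with the contrast that picked the genes, so they are no separate evidence on it. Between the wild-type arrays, 5 genes could be compared. Vpreb1 was at least 8.23-fold lower in bone marrow than in fetal liver (log2 -3.04), Cd79a 2.56-fold lower (-1.36) and Rag2 at least 2.62-fold lower (-1.39). Dntt was 2.19-fold higher in bone marrow (log2 1.13), and Pou2af1, detected in bone marrow only, had a bound of 0. Of all genes, 13.1% of 15382 were at least 2-fold higher and 31.9% at least 2-fold lower, with a median of -0.58. These differences moved with the scaling: spike-in scaling put the median of all genes at 0.71 and Cd79a at -0.04, and normexp background correction put Dntt at -0.057. The mean over both Rag2 probes gave -0.07.

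Between the arrays labelled Ezh2-null, 9 genes could be compared and 7 were at least 2-fold higher in bone marrow than in fetal liver. The bounds were at least 170-fold for Vpreb1, 29.1-fold for Pou2af1, 20.2-fold for Igll1, 13.7-fold for Vpreb2, 11.48-fold for Vpreb3 and 6.70-fold for Cd79b. Dntt, measured on both arrays, was 53.1-fold higher. Cd79a (log2 0.94) and Rag2 (-0.85) were under 2-fold. The median of the 9 was 3.78, while that of all genes was -0.51, with 10.4% of 16688 genes at least 2-fold higher and 26.9% at least 2-fold lower. With normexp background correction Cd79b was at 0.94 on the log2 scale, just under 2-fold. Cd79a passed 2-fold under each of the other scalings, at 1.57 with the percentile over all probes, 1.58 with quantile normalization and 1.85 with spike-in scaling, which made 8 higher genes, while normexp put it at 0.05. Rag2 was at -1.04 with the mean over its probes and at 0.05 with spike-in scaling.

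The rest of the pre-B pathway was read from lists of related genes, described by counts beside the shares over all genes given above. Among B-lineage transcription factors, 18 of 22 could be compared in bone marrow, none was at least 2-fold higher in the array labelled Ezh2-null and 2 were lower, with a median of 0.00. Ebf1, a factor that starts the B-cell program, read 4.40 and 2.87 in fetal liver and 2.42 and 2.16 in bone marrow (wild type first) and was not well above background on any array. Pax5, which holds cells in the B lineage, was well above background on all of them by its brighter probe, while only 1 of its 2 probes was so on each array. The brighter probe read 119 and 92.2 in fetal liver and 77.6 and 67.9 in bone marrow, with a bone marrow difference under 2-fold (log2 -0.19). Tcf3, whose E proteins bind E-boxes, read 290 on the wild-type and 470 on the Ezh2-null bone marrow array (log2 0.70), under 2-fold. The lower genes were Myb, a progenitor factor (409 against 113, log2 -1.86), and Zbtb17 (24.7 against 2.83, at least 2.48-fold).

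Genes that carry the signal of the pre-B receptor gave 12 of 19 that could be compared, 4 of them higher in Ezh2-null bone marrow and none lower (median 0.09). Blnk, the adaptor that links the receptor to its downstream enzymes, read 8.24 in wild-type and 35.5 in Ezh2-null bone marrow and was detected on the latter array alone (at least 3.20-fold). Dok3, an inhibitory adaptor, was 3.39-fold higher (15.97 against 54.1) and Plcg2, the phospholipase of the pathway, 2.24-fold higher (20.5 against 45.9). The kinases did not follow: Syk read 15.4 in wild-type and 11.51 in Ezh2-null bone marrow, and Blk was not well above background on any array. Plcg2 was also higher in Ezh2-null fetal liver, by at least 5.85-fold.

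Immunoglobulin genes were hardly seen. Of 15 listed, 5 were on the array and 1 could be compared. Ighm, the heavy chain that the surrogate light chain pairs with, read 6.73 and 10.5 in fetal liver and 2.92 and 7.24 in bone marrow (wild type first) and was not well above background on any array. Of the 14 genes that join V(D)J breaks, 8 could be compared in bone marrow. The polymerase gene Poll was higher in Ezh2-null bone marrow (2.08-fold) and its relative Polm lower (log2 -1.22), with a list median of -0.05. Xrcc5, a Ku subunit that holds broken ends, read 28.8 in wild-type and 40.9 in Ezh2-null bone marrow, while Xrcc4 was dim throughout. Among 17 lymphoid progenitor genes, 9 were compared and 2 were higher, Gfra2 (28.7 against 145, 5.06-fold) and Ltb (2.42 against 23.5, at least 2.11-fold). Il7r and Flt3, receptors on which early B-cell development depends, were not well above background on any array.

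**Figure D3:**
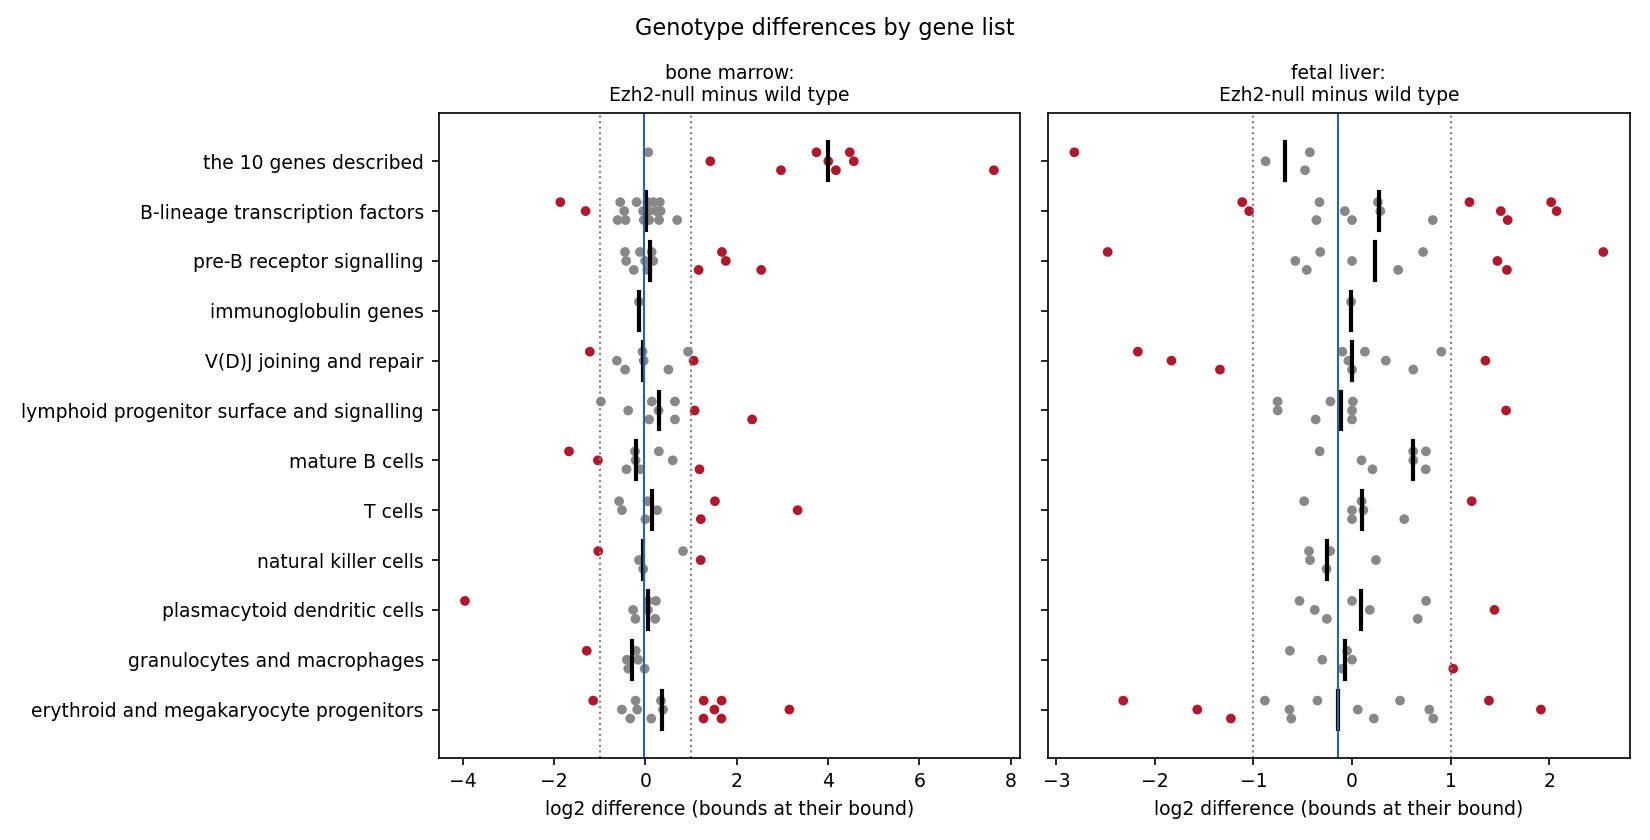
Log2 difference by genotype for each compared gene, by list, in bone marrow and fetal liver (dots, genes, red where at least 2-fold; dotted lines, 2-fold; black bars, list medians; blue line, median of all genes; the horizontal ranges of the panels differ). In bone marrow the medians of the other lists lie between -0.29 and 0.36, and that of the 10 genes described is 4.0.

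Some markers of other cells that such a sample could hold were higher on the Ezh2-null bone marrow array, and others were not. Of 17 T-cell markers on the array, 5 were detected in wild-type and 7 in Ezh2-null bone marrow, and their summed signal went from 203 to 348 (449 and 551 in the fetal liver arrays). In bone marrow 8 could be compared, 3 were at least 2-fold higher and none was lower, with a median of 0.15 (log2). Thy1, a surface protein of T cells and some progenitors, was 10.1-fold higher in Ezh2-null bone marrow (12.6 against 126), the kinase Lck at least 2.87-fold and Cd3e, a T-cell receptor chain, 2.32-fold (17.2 against 39.95). Lat (log2 -0.51) and Cd247 (a bound of -0.58) went the other way, under 2-fold, and Cd4 was at 0.05. Cd3g, Ptcra, Zap70, Cd8a, Cd8b1, Tcf7, Bcl11b and Gata3 were not well above background on any array. Cd3d was detected on the Ezh2-null bone marrow array alone, at 10.8, near the floor of 9.98, and its bone marrow difference was a bound of 0. It read 13.9 in Ezh2-null fetal liver, not well above background. Of 15 mature B-cell markers, 8 were detected on each bone marrow array, with sums of 1958 and 2055. Ms4a1 (CD20) was not well above background on any array, and Cr2 read 35.8 and 30.8. Cd74 was higher in the Ezh2-null array (at least 2.27-fold), while H2-Aa (log2 -1.67) and Ciita (-1.04) were lower. The part of other cells in the values of the 10 genes was not tested.

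Natural killer markers summed to 261 in wild-type and 350 in Ezh2-null bone marrow, with Klrd1 and Klrk1 dim on all arrays. Of that list, Il2rb was higher (at least 2.31-fold) and Eomes lower (log2 -1.03). Plasmacytoid dendritic markers summed to 2251 and 2111, with Siglech at 1808 and 1879, and Bst2 at 202 and 13.1 (log2 -3.95). Granulocyte and macrophage markers, of which Elane was dim throughout and Mpo read 14.3 and 11.03, summed to 59570 and 58380, mostly through the bright Itgam probe. In that list Cd68 was lower (log2 -1.28). The erythroid and megakaryocyte list itself had 14 of 17 genes compared, 6 higher and 1 lower, with a median of 0.36. It summed to 12000 in wild-type and 18510 in Ezh2-null bone marrow. Hba-a1, an alpha globin, was 8.89-fold higher, Pf4, a platelet chemokine, 3.18-fold, Klf1, an erythroid factor, 3.17-fold and Slc4a1, the red cell anion exchanger, 2.85-fold, while Gata2 was lower (-1.14). Over all 11 lists, 97 genes were compared in bone marrow. On the Ezh2-null array 18 were higher and 9 lower, beside 4.54% and 7.64% of all genes. With normexp background correction 6 of 96 were higher and 2 lower, beside 172 and 199 of all 15269 genes compared.

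In fetal liver 90 genes of the same lists were compared, with 15 higher and 9 lower in the array labelled Ezh2-null. Over all genes the shares were 15.4% higher and 13.3% lower, and the list counts lie near these shares. Myb, lower in bone marrow, was 4.06-fold higher there (207 against 840), and Ikzf1, a factor needed for lymphoid development that was singled out after its values were seen, was 4.21-fold higher (62.3 against 263). Blnk was not well above background on either fetal liver array.

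Other genes were ranked by how closely their profile over the 4 arrays followed the median profile of the 9 genes detected somewhere. The measure was the Euclidean distance between log2 signals, raised to the highest floor and centred over the arrays. It was taken over 13967 genes detected on the Ezh2-null bone marrow array. The nearest was LOC100047651 (distance 0.10), a predicted locus that the deposited files describe as similar to FOG, an erythroid and megakaryocyte cofactor of Gata1. Zfpm1, the gene of FOG itself, was not among the nearest 8. It read 380 in wild-type and 336 in Ezh2-null bone marrow (log2 -0.18). Next came Pde2a, a cyclic nucleotide phosphodiesterase (0.19), which read 40.4, 34.9 and 39.6 on the first 3 arrays and 385 in Ezh2-null bone marrow. Dhrs3, a retinal reductase, followed at 0.21, and its bone marrow difference was 11.7-fold. Eya2 (14.9-fold), Sting1 (8.78-fold), Cd52 (at least 10.3-fold), Thy1 (10.1-fold) and Ctxn1 (at least 9.87-fold) completed the nearest 8, at distances of 0.45 to 0.58. Of the genes described, Vpreb2 (0.09) and Vpreb3 (0.20) lay as near, and Vpreb1 (3.11), Rag2 (3.08) and Cd79a (2.26) lay far from the median profile. Profiles of 4 arrays, with 5 of the 9 genes at the floor on 3 arrays, are a description, and all genes share the same samples.

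Genes beside the members in the RefSeq order of GRCm38.p6 were read to see whether a whole stretch was raised. Igll1 and Vpreb1 are direct neighbours, and so are Rag1 and Rag2. On the far side of Igll1, Rpl31-ps12 differed by 0.00 (log2) by genotype in bone marrow, and on the far side of Vpreb1, Top3b differed by -0.21. Rpl31-ps12 read 25230 in wild-type and 25210 in Ezh2-null bone marrow, and whether so bright a probe reads this locus alone was not tested. The next gene on that side, Spag6l, was dim on all arrays. Beside Vpreb2, Slc25a1 was at 0.87 and Dgcr6 at -0.01. Rps19 (0.00) and Arhgef1 (0.41) flank Cd79a, Chchd10 (0.08) adjoins Vpreb3, Scn4a (0.18) adjoins Cd79b and Colca2 (-0.47) adjoins Pou2af1. Beside Dntt lies Blnk, at least 3.20-fold higher, and on its other side Opalin, dim on both bone marrow arrays. Apart from Igll1 and Vpreb1 themselves and from Blnk, none of these named neighbours reached 2-fold.

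Promoter letters were searched because most of these genes were high on the same array. RefSeq's table gave a window for 9 of the 10 genes, from 250 bases before to 50 after the start, and Cd79b was the other. Motifs were counted on both strands: the E-boxes CAGGTG and CAGCTG, which E proteins such as that of Tcf3 bind, the early B-cell factor pattern CCCNNGGG and the octamer ATGCAAAT, to which octamer factors bind with the Pou2af1 product. CAGGTG was in 5 of the 9 windows (Vpreb1, Vpreb2, Igll1, Cd79a and Rag1) and in 20.2% of 32851 promoters. CAGCTG was in 3 (Vpreb2, Igll1 and Rag1) and in 16.3% of all. CCCNNGGG was in Igll1 alone and in 13.7% of all, and the octamer in Vpreb3 alone and in 1.74% of all. The Igll1 window (chr16:16863986-16864235, minus strand) and the Vpreb3 window (chr10:75948050-75948299, plus strand) are shown up to the start, with motif matches in capitals.
Igll1 promoter: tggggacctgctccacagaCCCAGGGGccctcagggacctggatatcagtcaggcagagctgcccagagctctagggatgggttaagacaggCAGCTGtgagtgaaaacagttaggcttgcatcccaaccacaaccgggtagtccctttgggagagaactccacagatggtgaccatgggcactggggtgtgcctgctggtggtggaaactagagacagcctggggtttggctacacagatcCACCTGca
Vpreb3 promoter: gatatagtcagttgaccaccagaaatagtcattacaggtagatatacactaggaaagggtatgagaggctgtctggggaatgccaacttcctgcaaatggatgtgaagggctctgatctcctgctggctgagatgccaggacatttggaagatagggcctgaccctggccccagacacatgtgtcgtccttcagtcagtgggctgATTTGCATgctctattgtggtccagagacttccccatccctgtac
In Igll1 the matches begin at -231, -158 and -8, counted from the start, and in Vpreb3 the octamer begins at -45, on the other strand. The Vpreb1 and Vpreb2 matches of CAGGTG, at -88 and -232, are the same bases of the shared stretch. A match describes the letters alone and is no evidence of a bound site.

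The windows of most of these genes held few CG dinucleotides. Vpreb2 had 1, Vpreb1, Igll1 and Dntt had 2 each, Vpreb3, Rag1 and Rag2 had 3 each, and Cd79a and Pou2af1 had 8 each. Over all promoters of the table the median was 7, with quartiles of 3 and 20. Rag1, dim on both bone marrow arrays, and Rag2, with a difference under its spread, thus had as few as Vpreb3.

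**Figure D4:**
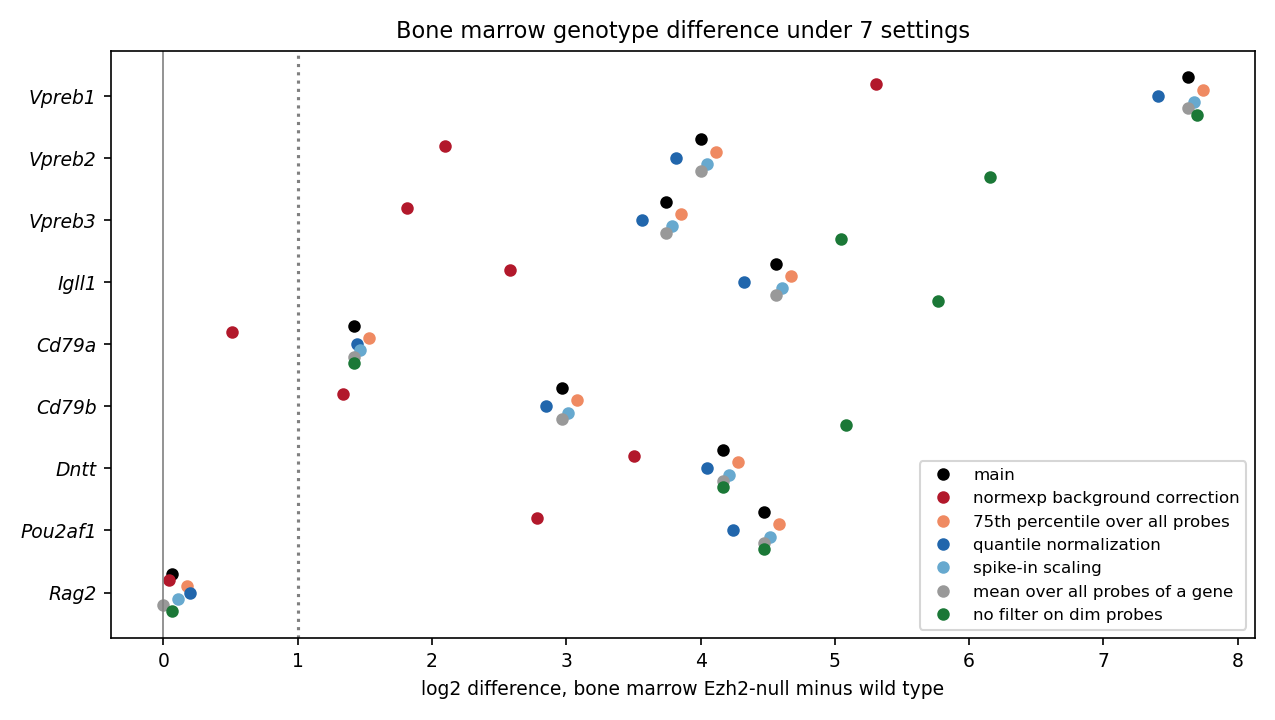
Log2 difference by genotype in bone marrow for the 9 compared genes under 7 settings of the processing (1 colour per setting; dotted line, 2-fold). Normexp background correction gives the lowest value for 8 of the 9 genes and places Cd79a at 0.51, under the 2-fold line.

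The differences in bone marrow kept their direction for the 8 higher genes under every setting that gave a value. With normexp background correction they were 5.31 for Vpreb1, 3.50 for Dntt, 2.79 for Pou2af1, 2.58 for Igll1, 2.10 for Vpreb2, 1.81 for Vpreb3 and 1.34 for Cd79b (log2). For the genes given as bounds, these values are smaller than the bounds of the main processing. The highest values for Vpreb1, Dntt and Pou2af1 were 7.74, 4.28 and 4.58, all with the percentile over all probes. The bounds of Vpreb2, Vpreb3, Igll1 and Cd79b rose to 6.16, 5.05, 5.77 and 5.09 where dim probes were taken at their own signal.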

How the data were processed

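Each of 4 one-colour Agilent arrays held 1 sample. The deposited intensities are Feature Extraction 10.7.3.1 output (probes placed on mm9), background-subtracted and detrended within the array, per the file headers. The spot marks for outliers and for signals well above background are those of the deposited scanner files, and the authors' series table repeats the intensities at 3 digits.

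Control spots and spots marked as outliers were left out and spots of a probe averaged. Log2 intensity was scaled to the 75th percentile over 12880 probes well above background on all arrays. A probe counted as detected with at least 50% of its spots well above background, and the brightest probe stood for a gene. A difference of at least 2-fold was counted, with no test and no fit over the arrays, since its genotype term would hold the contrast used to choose the genes. The scripts were tested on simulated data. Python 3.11.15, pandas 2.3.3, numpy 2.4.6, R 4.3.3 and limma 3.58.1 were used. Accessions named 26055 probes, symbols 3195, older symbols 930, a description 1, and 9248 kept the file's name (RefSeq, GRCm38.p6).

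The 10 genes and all lists were chosen with earlier results of these data known. Named from each list were its first 2 genes and up to 4 per direction by size of the bone marrow difference. Alternatives were normexp (offset 50), 3 other scalings, the mean over probes, 2 filters on dim probes, the series table and outlier spots kept. A 4-fold threshold and detection on every spot were added after seeing the data. Some genes of these lists are counted but not reported here by name.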

Additional observations from a re-analysis of the deposited data

Results flagged for a closer look

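Vpreb1 moved in opposite directions by genotype in the 2 sources. The array labelled Ezh2-null was lower by a bound of -2.82 (log2) in fetal liver and higher by a bound of 7.63 in bone marrow. The difference between the sources was not tested, since each group was 1 array and the Vpreb1 probe was 1 spot on it.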

How the results depend on the processing

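Over all genes, the settings that moved the scale moved the medians: between the wild-type sources from -0.58 to -0.23 (percentile over all probes), -0.22 (quantile) and 0.71 (spike-in), between the Ezh2-null sources from -0.51 to 0.10, 0.00 and 0.37, and in fetal liver from -0.14 to -0.31, -0.17 and 0.23. The share of higher genes among those past 2-fold was 29.1% between the wild-type sources (55.0, 51.7 and 94.7% under those settings), 27.8% between the Ezh2-null sources (64.2, 52.1 and 75.2%), and 53.6% in fetal liver (41.8, 52.7 and 82.7%). Of the 10 genes, the 1 past 2-fold in fetal liver became 2 with the percentile over all probes, 2 with quantile normalization, 0 with detection required on both arrays and 3 with no filter. Requiring detection on both arrays left 3 of 8 in bone marrow, 2 of 4 between the wild-type sources and 1 of 7 between the Ezh2-null sources, because fewer genes could then be compared. Between the wild-type sources the 4 also became 2 with quantile normalization, 3 with spike-in scaling, where the balance turned to 2 higher and 1 lower, and 1 at 4-fold. Dntt there turned to -0.057 with normexp. In the other lists, the 27 genes past 2-fold in bone marrow became 8 with normexp and 44 with no filter. The 24 in fetal liver became 13 and 49 under these settings. The counts over all genes moved as well. In bone marrow, 694 higher and 1167 lower of 15279 became 172 and 199 of 15269 with normexp, and 1807 and 3165 of 31703 with no filter. In fetal liver, 2501 and 2163 of 16257 became 794 and 1059 of 16224, and 3845 and 4680 of 31703. For scaling and normexp the cause was not tested. Windows from 100 bases before the start held a motif in 4 of 9 genes, against 6 with whole windows. The share of all promoters with any of the motifs was not counted, so nothing is read from these 2 counts. In the shorter windows CAGGTG was in 2 of the 9 genes and 10.5% of all promoters, and CAGCTG in 1 and 9.40%. CCCNNGGG was in 0 and 7.28%, and the octamer in 1 and 0.782%. No paired analysis was possible because each group had 1 array. The number of arrays limits the precision, and signals near the floor carry the most spread.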
